A study of Bos taurus with 7 samples.

Results

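The 38 genes described here encode proteins of the nuclear pore and the carriers that move cargo through it: 29 nucleoporins or pore-associated proteins, 6 importin alphas, importin beta 1 (KPNB1), the GTPase RAN and its activator RANGAP1. They were taken from a list of gene names and grouped by the place of the protein in the pore. All 38 were found among the 23704 genes with a matched transcript. RNA was sequenced from whole bovine follicles, an oocyte with its granulosa cells, isolated mechanically from the ovarian cortex of Holstein Friesian cows in the second year of life and stored for RNA (T0) after a short recovery in medium with insulin, transferrin, selenium and FSH. Secondary follicles (SF, 3 libraries) have several layers of granulosa cells, and primary follicles (PF, 4 libraries) have a layer of cuboidal granulosa cells. Each library was a pool of follicles, and no animal was treated. The study calls the pools biological replicates, but the sources do not say which animals went into a library. The p-values thus reflect the spread between pools alone, and that spread can also be technical.

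The nuclear pore is a channel through the nuclear envelope that is built from many copies of each nucleoporin. An outer ring (the Y complex) and an inner ring form its scaffold, membrane proteins anchor it, and nucleoporins rich in phenylalanine-glycine repeats fill the channel and line its cytoplasmic face and nuclear basket. Importin alpha binds the nuclear localization signal of a cargo protein and importin beta 1, which carries both through the channel, and RAN loaded with GTP releases them in the nucleus. A growing oocyte stores RNA and protein for use after fertilization, and its large nucleus, the germinal vesicle, is rich in pores.

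The libraries held 18788105 to 23764615 estimated counts. PF replicate 4 was left out of the comparison. It is the library that the study removed. Its Spearman correlation across genes was 0.740 to 0.800 with the other PF libraries and 0.833 to 0.867 with the SF libraries, against 0.859 to 0.918 among PF replicates 1 to 3, and its score for 8 stromal fibroblast markers, the mean log2(TPM + 1), was 8.09, against 2.48 to 3.50 in SF and 2.56 to 3.03 in the other PF libraries. The score of 15 oocyte markers was 4.80, 4.97 and 2.70 in SF, against 6.60, 6.88 and 5.79 in PF replicates 1 to 3, and 3.50 in PF replicate 4. The score of 12 granulosa markers was 6.58, 6.64 and 7.80 in SF, against 5.91, 5.73 and 5.30 in PF replicates 1 to 3, and 6.06 in PF replicate 4. Oocyte and granulosa markers were thus present in every library, in unequal amounts. In such bulk samples fewer cells of a type and less RNA per cell cannot be told apart.

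Levels are given as TPM, which are corrected for sequencing depth and transcript length, and means as TPM ± SD over n = 3 libraries of each stage. SEC13, RAN and KPNA2 were the most abundant of the 38 genes, with means of 349 ± 138 TPM in SF and 878 ± 256 TPM in PF, 432 ± 40.8 TPM in SF and 390.2 ± 54.4 TPM in PF, and 247 ± 74.4 TPM in SF and 450.3 ± 136 TPM in PF. At the other end KPNA6, AHCTF1, NUP210, KPNB1, RANGAP1, NUP205 and NUP214 had means below 8 TPM in both stages. KPNB1, the partner of the importin alphas, averaged 4.97 ± 2.08 TPM in SF and 2.17 ± 0.167 TPM in PF, although the 6 importin alphas together summed to 291 to 443 TPM in the SF libraries and 533 to 851 TPM in the 4 PF libraries. Of the 38 genes 17 had 1 matched transcript and 21 had several, up to 5, and reads on models that could not be matched to a gene are missing from these sums.

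**Figure D1:**
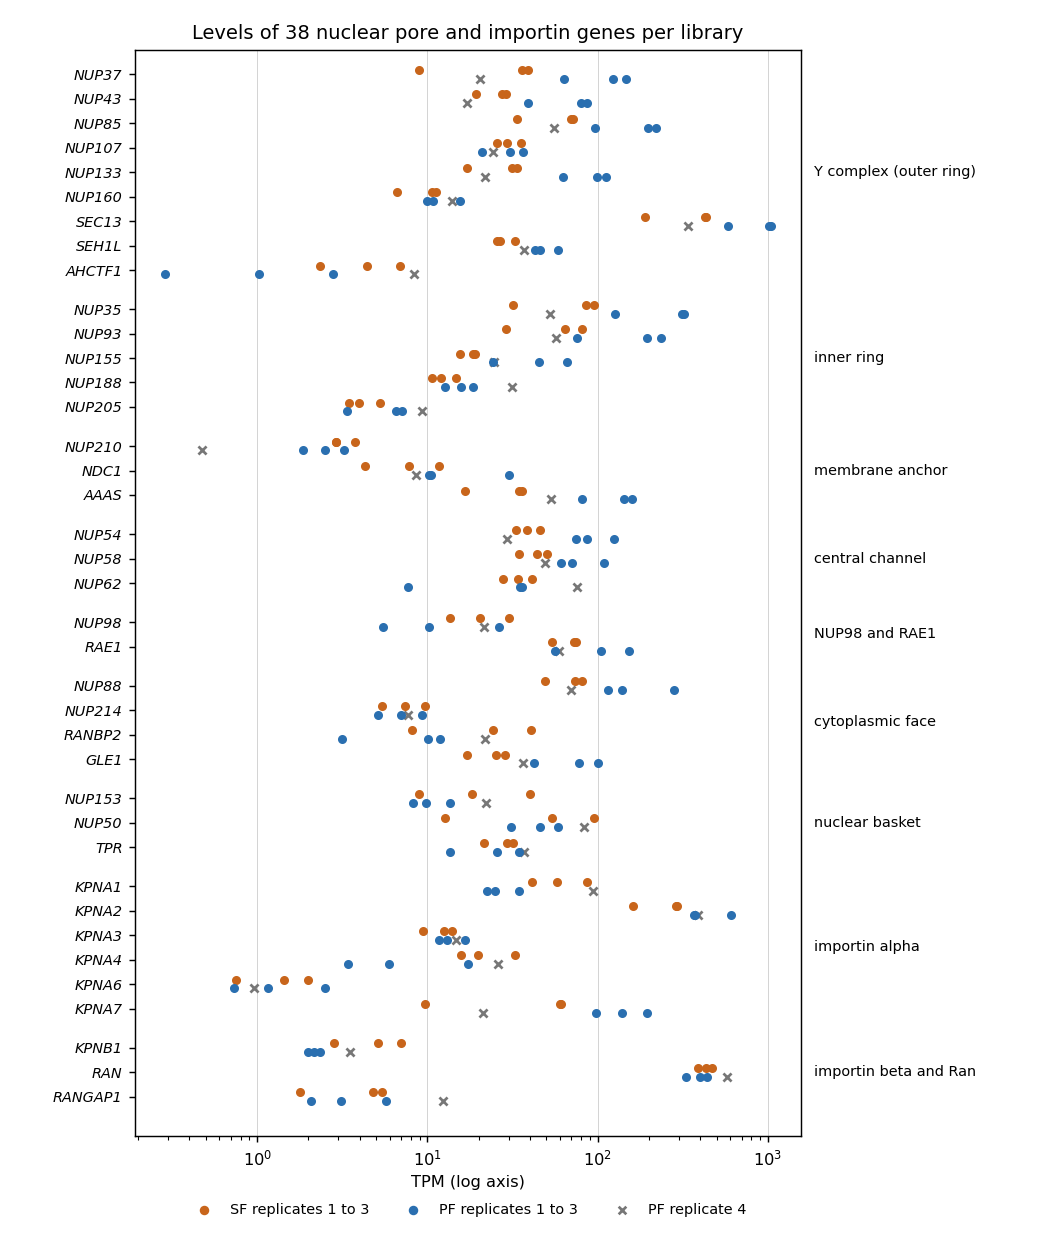
TPM of each gene in every library on a log axis, SF above PF within each gene, with PF replicate 4 as a cross. The SF points lie left of PF replicates 1 to 3 for 15 genes and right of them for 2, and RAN stays between 331 and 577 TPM in all 7 libraries.

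The comparison of SF with PF asked whether transcripts of the nuclear pore and of its import carriers change as the follicle adds granulosa layers. By the Wald test of DESeq2, with p-values adjusted over all genes, 14 of the 38 genes were lower in SF, 1 was higher and 23 did not pass. Of all 15056 genes tested 11.0% were lower and 8.14% higher. The median log2 fold change, SF over PF, was -0.26 over the 38 genes and 0.02 over all genes tested. The falls were among the nucleoporins (13 of 29) and the importin alphas (KPNA7), and the gene that rose was KPNA1. The study names 7 nucleoporins as changed in these libraries (NUP37, NUP43, NUP54, NUP88, NUP93, NUP133 and NUP155), all among the 14, so they are not independent evidence of the direction. Of the other 31 genes 7 were lower and 1 was higher. These were tested on the same libraries and chosen with earlier results of these data known, so they are not independent evidence either.

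By position, 5 of 9 outer ring genes, 3 of 5 inner ring genes, 1 of 3 membrane anchor genes, 2 of 3 channel genes, 2 of 4 cytoplasmic face genes and 1 of 6 importin alphas fell. None of the 3 nuclear basket genes, of the pair NUP98 and RAE1, or of KPNB1, RAN and RANGAP1 passed in either direction. Of all genes tested 11.0% were lower and 8.14% higher, so a group of 2 or 3 genes would often have no call. Positions were not compared by a test. The 3 SF libraries lay below PF replicates 1 to 3 in TPM for 15 of the 38 genes and above them for 2, where 18.5% and 14.3% of all genes tested did so. The 15 were 13 of the 14 genes that fell, with SEH1L and KPNA2, and the 2 were KPNA1 and KPNB1. The quasi-likelihood test of edgeR called 0 of 14293 genes (0%) after adjustment, with a smallest adjusted p of 0.052. On simulated counts with the spread of these libraries and a small set of changed genes, DESeq2 called many unchanged genes, well above its threshold, and edgeR few. How many genes truly changed in these libraries is not known. The share of false calls in the simulation thus cannot be carried over to the 2876 calls of DESeq2, in either direction. A single DESeq2 call should still be read as less certain than its adjusted p states. At an unadjusted p under 0.05 edgeR had the same 14 genes lower, where 13.5% of all genes were, and KPNA1 and RANBP2 higher, where 13.4% of all genes were. With PF replicate 4 kept, DESeq2 called 2 of the 38 lower, AAAS and GLE1, where 3.19% of all genes were, and 0 higher, where 2.63% were.

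**Figure D2:**
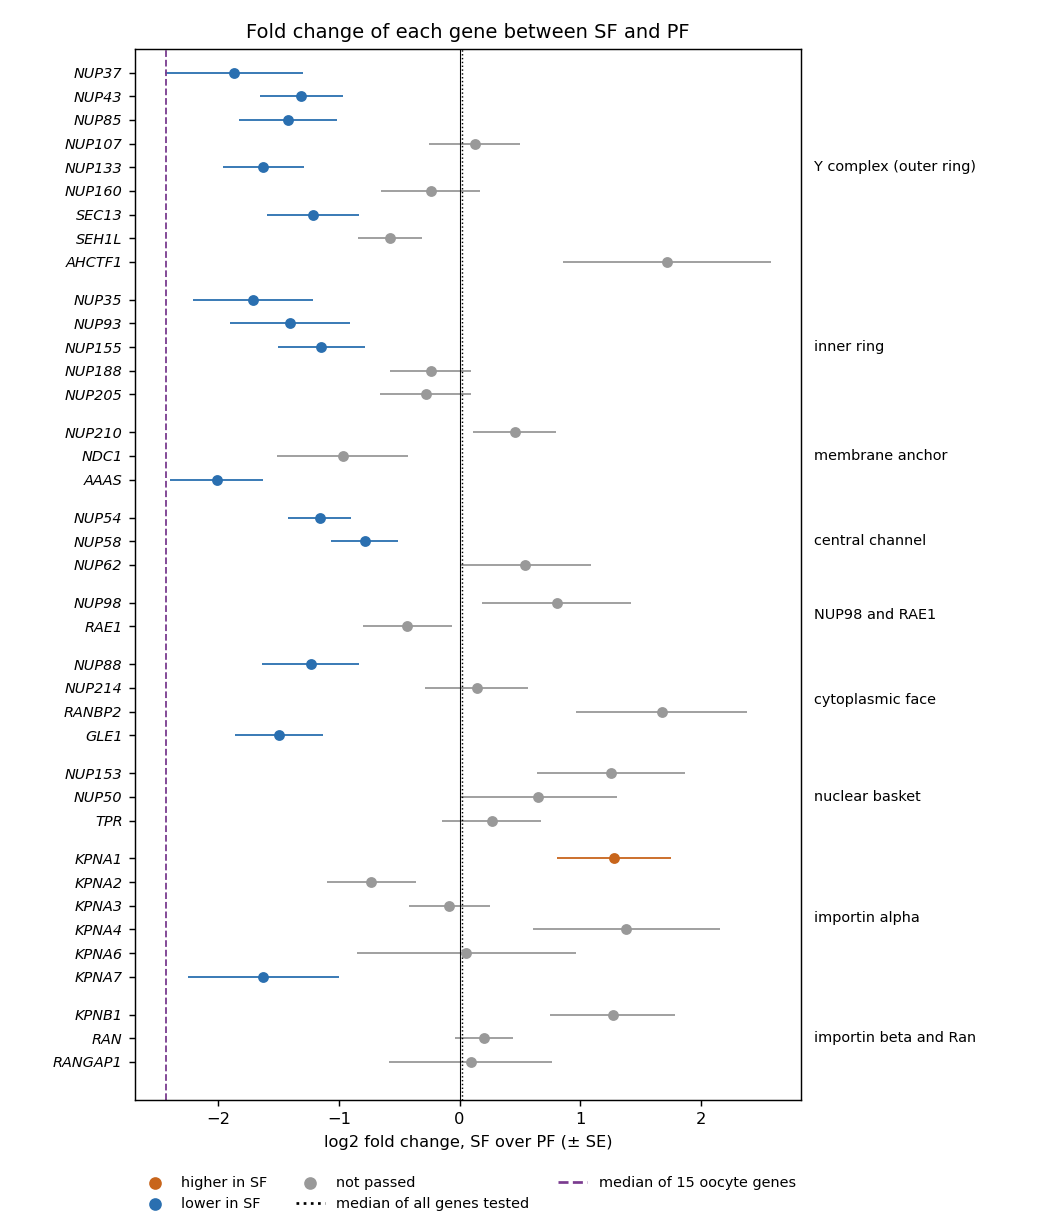
Log2 fold change (SF over PF) ± SE of each gene by DESeq2, grouped by position in the pore, with the median of all genes tested (dotted, 0.02) and of 15 oocyte markers (dashed, -2.44). The 14 genes that fell lie between -2.02 and -0.78, all to the right of the oocyte median, and KPNA1 lies at 1.28. The single oocyte markers, not drawn, range from -3.48 to -0.57.

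The outer ring, or Y complex, forms the rings at the nuclear and cytoplasmic faces of the pore. Its genes NUP133, NUP37, NUP85, NUP43 and SEC13 fell 2.33- to 3.65-fold, while NUP107, NUP160, SEH1L and AHCTF1 did not pass. NUP133, which helps to tether the ring to the membrane, had 31.3, 33.8 and 17.0 TPM in SF replicates 1 to 3, against 112, 99.0 and 62.9 TPM in PF replicates 1 to 3 and 21.9 TPM in PF replicate 4. All SF values lay below those of PF replicates 1 to 3, and PF replicate 4 lay among them (log2 fold change -1.63 ± 0.34, DESeq2 adjusted p = 6.9e-05). NUP37, a short arm protein of the ring, had 39.1, 35.9 and 8.95 TPM in SF replicates 1 to 3, against 146, 123 and 63.3 TPM in PF replicates 1 to 3 and 20.4 TPM in PF replicate 4. Here SF replicate 3 was the lowest library by far, and the stages did not overlap apart from PF replicate 4 (-1.87 ± 0.57, DESeq2 adjusted p = 0.010). NUP43, another protein of the outer ring, had 27.4, 28.8 and 19.2 TPM in SF, against 87.0, 79.9, 38.8 and 17.2 TPM in PF replicates 1 to 4. The first 3 PF libraries were above all SF libraries, and the fourth was below them (-1.31 ± 0.35, DESeq2 adjusted p = 0.0023).

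NUP85, an arm protein of the outer ring, had 70.1, 71.4 and 33.7 TPM in SF replicates 1 to 3, against 197, 221 and 96.6 TPM in PF replicates 1 to 3 and 55.3 TPM in PF replicate 4. The stages did not overlap when PF replicate 4 was set aside (-1.42 ± 0.41, DESeq2 adjusted p = 0.0057). SEC13, which also coats vesicles that leave the endoplasmic reticulum, had 428, 430.4 and 190.1 TPM in SF replicates 1 to 3, against 1037, 1015 and 582 TPM in PF replicates 1 to 3 and 340.3 TPM in PF replicate 4, again without overlap in the libraries compared (-1.22 ± 0.38, DESeq2 adjusted p = 0.012). The other 4 genes of the ring moved less or in the other direction. NUP107, the partner of NUP133, averaged 30.2 ± 4.89 TPM in SF and 29.3 ± 7.78 TPM in PF and NUP160 9.51 ± 2.50 TPM in SF and 12.1 ± 3.05 TPM in PF, with log2 fold changes of 0.13 ± 0.38 and -0.24 ± 0.41. SEH1L averaged 28.4 ± 3.78 TPM in SF and 49.2 ± 8.22 TPM in PF and its libraries did not overlap, but it missed the threshold (-0.58 ± 0.27, DESeq2 adjusted p = 0.11). AHCTF1 (ELYS), which recruits the ring to chromatin, was low, at 4.56 ± 2.30 TPM in SF and 1.37 ± 1.28 TPM in PF (1.72 ± 0.86, DESeq2 adjusted p = 0.15), and passed as higher without PF replicate 3 (0.00075). The ratio of NUP133 to NUP107 in TPM was 1.22, 0.954 and 0.577 in SF, against 5.35, 2.73, 2.05 and 0.902 in PF replicates 1 to 4. With PF replicate 4 kept none of the outer ring calls passed (DESeq2 adjusted p = 0.12 for NUP133, 0.15 for NUP85, 0.18 for NUP37, 0.18 for SEC13 and 0.25 for NUP43). The calls of NUP37 and SEC13 ended without PF replicate 1 (0.076 and 0.071) or PF replicate 2 (0.064 and 0.082), and that of NUP85 without PF replicate 2 (0.059).

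The inner ring binds the outer ring to the membrane and to the channel. NUP35, NUP93 and NUP155 fell 2.22- to 3.28-fold, and the large scaffold proteins NUP188 and NUP205 did not pass. NUP35, which touches the pore membrane, had 95.1, 85.9 and 31.9 TPM in SF replicates 1 to 3, against 323, 312 and 126 TPM in PF replicates 1 to 3 and 52.8 TPM in PF replicate 4. Both SF replicate 3 and PF replicate 3 were low in their stage, and the stages did not overlap (-1.71 ± 0.50, DESeq2 adjusted p = 0.0064). NUP93, the linker that holds the channel nucleoporins, had 80.5, 64.1 and 28.8 TPM in SF replicates 1 to 3, against 236, 194 and 75.8 TPM in PF replicates 1 to 3 and 56.8 TPM in PF replicate 4. PF replicate 3 lay below SF replicate 1, so the stages overlapped, and the call was among the weakest of the 14 (-1.41 ± 0.50, DESeq2 adjusted p = 0.031). NUP155 had 18.5, 19.02 and 15.6 TPM in SF replicates 1 to 3, against 65.8, 45.5 and 24.2 TPM in PF replicates 1 to 3 and 24.8 TPM in PF replicate 4. The SF libraries were close to each other and below all 4 PF libraries (-1.15 ± 0.36, DESeq2 adjusted p = 0.012). NUP188 averaged 12.5 ± 2.09 TPM in SF and 15.7 ± 2.97 TPM in PF (-0.24 ± 0.34), and NUP205 4.25 ± 0.941 TPM in SF and 5.67 ± 2.00 TPM in PF (-0.28 ± 0.38). The ratio of NUP93 to NUP205 in TPM was 23.2, 12.1 and 7.23 in SF, against 33.2, 29.9, 22.4 and 6.09 in PF replicates 1 to 4. All 3 calls were lost with PF replicate 4 kept (DESeq2 adjusted p = 0.18 for NUP35, 0.21 for NUP93 and 0.078 for NUP155), and without PF replicate 1 (0.055, 0.17 and 0.079) or PF replicate 2 (0.061, 0.14 and 0.067). Leaving out SF replicate 2 ended NUP93 and NUP155 (0.11 and 0.077), and leaving out SF replicate 3 ended NUP93 (0.086).

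Among the membrane anchors AAAS (ALADIN), which binds the pore membrane protein NDC1, fell 4.04-fold, the largest fall of the 38 genes. It had 36.0, 34.7 and 16.6 TPM in SF replicates 1 to 3, against 158, 143 and 81.2 TPM in PF replicates 1 to 3 and 53.6 TPM in PF replicate 4. All 4 PF libraries lay above all 3 SF libraries (-2.02 ± 0.39, DESeq2 adjusted p = 1.5e-05), and the call held with PF replicate 4 kept (0.0034) and in all 6 fits that left out a library. NDC1 itself averaged 7.93 ± 3.66 TPM in SF and 16.9 ± 11.5 TPM in PF (-0.97 ± 0.54, DESeq2 adjusted p = 0.21), with PF replicate 1 at 30.2 TPM and the other PF libraries at 8.61 to 10.4 TPM. NUP210, a pore membrane glycoprotein, averaged 3.18 ± 0.491 TPM in SF and 2.52 ± 0.686 TPM in PF (0.46 ± 0.34).

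The central channel is lined by the trimer of NUP54, NUP58 and NUP62. NUP54 and NUP58 fell 2.24- and 1.72-fold, and NUP62 did not pass. NUP54 had 38.6, 45.7 and 33.2 TPM in SF replicates 1 to 3, against 124, 86.5 and 74.6 TPM in PF replicates 1 to 3 and 29.5 TPM in PF replicate 4. PF replicate 4 was below all SF libraries, and the other PF libraries were above them (-1.16 ± 0.26, DESeq2 adjusted p = 0.00025). NUP58 had 43.8, 50.2 and 34.3 TPM in SF replicates 1 to 3, against 109, 70.7 and 60.9 TPM in PF replicates 1 to 3 and 49.1 TPM in PF replicate 4, with no overlap between SF and PF replicates 1 to 3 (-0.78 ± 0.28, DESeq2 adjusted p = 0.031). NUP62 had 34.1, 41.0 and 27.7 TPM in SF replicates 1 to 3, against 35.0, 36.0 and 7.73 TPM in PF replicates 1 to 3 and 76.0 TPM in PF replicate 4. PF replicate 3 was the lowest library and PF replicate 4 the highest, so that the SF libraries lay inside the PF range (0.55 ± 0.54, DESeq2 adjusted p = 0.52). The ratio of NUP54 to NUP62 was 1.13, 1.11 and 1.20 in SF, against 3.55, 2.40, 9.65 and 0.388 in PF replicates 1 to 4. Neither call held with PF replicate 4 kept (0.23 for NUP54 and 0.15 for NUP58). The call of NUP54 held in all 6 fits that left out a library, whereas that of NUP58 held only without PF replicate 3 and ended without each of the other 5 (DESeq2 adjusted p = 0.054 to 0.12) and with TMM factors (0.055).

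On the cytoplasmic face, where messenger RNA is stripped of its export factors, NUP88 and GLE1 fell 2.35- and 2.82-fold. NUP88 had 48.8, 81.3 and 73.7 TPM in SF replicates 1 to 3, against 279.9, 139 and 115 TPM in PF replicates 1 to 3 and 69.4 TPM in PF replicate 4. PF replicate 1 was far above the other libraries, and the stages did not overlap in the 6 libraries compared (-1.24 ± 0.40, DESeq2 adjusted p = 0.018). GLE1, which activates the RNA helicase of the export platform, had 28.6, 25.3 and 17.2 TPM in SF replicates 1 to 3, against 100, 78.0 and 42.5 TPM in PF replicates 1 to 3 and 36.5 TPM in PF replicate 4. All 4 PF libraries were above the SF libraries (-1.50 ± 0.36, DESeq2 adjusted p = 0.00092). The call of GLE1 held with PF replicate 4 kept (0.022) and in all 6 fits that left out a library, whereas that of NUP88 ended with PF replicate 4 kept (0.19) and without PF replicate 1, SF replicate 1 or SF replicate 2 (0.11, 0.066 and 0.063). NUP214, the partner of NUP88, averaged 7.50 ± 2.16 TPM in SF and 7.14 ± 2.06 TPM in PF (0.14 ± 0.43). RANBP2, the largest filament protein, which holds RANGAP1 at the pore, averaged 24.4 ± 16.3 TPM in SF and 8.37 ± 4.59 TPM in PF and did not pass (1.68 ± 0.71, DESeq2 adjusted p = 0.079) except without SF replicate 1 (0.015). NUP98, which is made as a precursor together with the outer ring protein NUP96, averaged 21.3 ± 8.34 TPM in SF and 14.1 ± 11.0 TPM in PF (0.81 ± 0.62), and its partner in RNA export RAE1 67.0 ± 11.6 TPM in SF and 105 ± 48.2 TPM in PF (-0.43 ± 0.37).

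No gene of the nuclear basket passed. NUP153, which anchors the basket, averaged 22.3 ± 15.9 TPM in SF and 10.5 ± 2.73 TPM in PF (1.25 ± 0.62, DESeq2 adjusted p = 0.14, and 0.020 without SF replicate 1), and TPR, its main filament, 27.7 ± 5.42 TPM in SF and 24.6 ± 10.5 TPM in PF (0.27 ± 0.41). NUP50, a mobile cofactor that helps importin alpha to release its cargo, averaged 54.0 ± 41.3 TPM in SF and 45.1 ± 13.7 TPM in PF (0.65 ± 0.65). Its SF libraries spread from 12.7 to 95.3 TPM, across the whole PF range.

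Within the importin alphas KPNA7 fell and KPNA1 rose. KPNA7, an importin alpha made mainly in oocytes and early embryos of cattle and other mammals, had 61.3, 60.0 and 9.70 TPM in SF replicates 1 to 3, against 195, 139 and 97.9 TPM in PF replicates 1 to 3 and 21.2 TPM in PF replicate 4. SF replicates 1 and 2 were alike and SF replicate 3 was far lower, all 3 below PF replicates 1 to 3 (-1.63 ± 0.63, DESeq2 adjusted p = 0.049). KPNA1, which is made in most tissues, had 41.3, 57.9 and 87.1 TPM in SF replicates 1 to 3, against 25.0, 22.5 and 34.7 TPM in PF replicates 1 to 3 and 94.2 TPM in PF replicate 4. The SF libraries were above PF replicates 1 to 3, and PF replicate 4 was above all other libraries (1.28 ± 0.47, DESeq2 adjusted p = 0.038). Both calls ended with PF replicate 4 kept (0.34 for KPNA7 and 0.74 for KPNA1) and without PF replicate 1 (0.20 and 0.18), PF replicate 2 (0.13 and 0.17) or SF replicate 2 (0.081 and 0.086). That of KPNA7 also ended without PF replicate 3 (0.054), with TMM factors (0.070), with a transcript length offset (0.051) and in a fit that included the library number (0.079), and that of KPNA1 without SF replicate 3 (0.17). KPNA2, the importin alpha of dividing cells and the most abundant here, averaged 247 ± 74.4 TPM in SF and 450.3 ± 136 TPM in PF without overlap between the stages, and did not pass (-0.73 ± 0.37, DESeq2 adjusted p = 0.15). KPNA4 averaged 22.7 ± 8.79 TPM in SF and 8.90 ± 7.39 TPM in PF (1.38 ± 0.77, DESeq2 adjusted p = 0.20, and 0.00053 without PF replicate 3), KPNA3 12.0 ± 2.37 TPM in SF and 13.8 ± 2.62 TPM in PF (-0.09 ± 0.34) and KPNA6 1.40 ± 0.621 TPM in SF and 1.46 ± 0.922 TPM in PF (0.06 ± 0.91).

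As shares of the summed TPM of the 6 importin alphas, KPNA2 held 55.4%, 65.9% and 66.6% in SF, against 71.4%, 67.4% and 69.5% in PF replicates 1 to 3 and 71.2% in PF replicate 4. KPNA7 held 21.1%, 13.5% and 2.24% in SF, against 22.9%, 25.1% and 18.4% in PF replicates 1 to 3 and 3.88% in PF replicate 4. SF replicate 1 was thus within the range of PF replicates 1 to 3, and SF replicate 3 and PF replicate 4 had the smallest shares. KPNA1 held 14.2%, 13.1% and 20.1% in SF, against 2.94%, 4.07% and 6.52% in PF replicates 1 to 3 and 17.3% in PF replicate 4, so that all SF shares were above those of PF replicates 1 to 3. The ratio of KPNA2 to KPNA1 was 3.90, 5.04 and 3.31 in SF, against 24.3, 16.6, 10.7 and 4.12 in PF replicates 1 to 4. Shares of a sum move together, since a smaller share of one gene enlarges the others, and they were not tested.

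**Figure D3:**
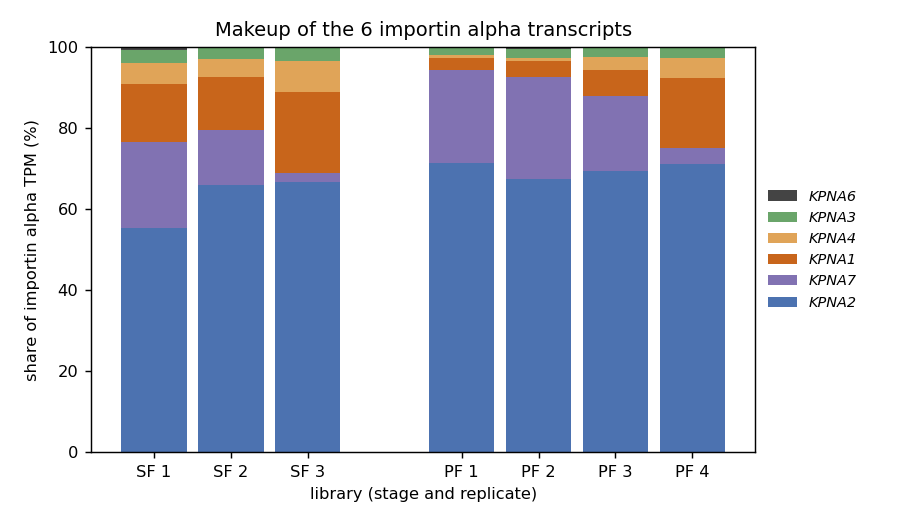
Share of each importin alpha in the summed TPM of all 6, for each library (SF replicates 1 to 3 left, PF replicates 1 to 4 right). KPNA2 is the largest part of every bar, the KPNA1 part is 13.1% to 20.1% in SF and 2.94% to 6.52% in PF replicates 1 to 3, and the KPNA7 part is smallest in SF replicate 3 and PF replicate 4.

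Neither importin beta 1 nor the Ran pair passed. KPNB1 had 6.99, 5.09 and 2.82 TPM in SF replicates 1 to 3, against 2.16, 2.00 and 2.34 TPM in PF replicates 1 to 3 and 3.49 TPM in PF replicate 4. All SF libraries were above PF replicates 1 to 3, at low levels in both stages, and the gene missed the threshold (1.27 ± 0.52, DESeq2 adjusted p = 0.067), which it passed without SF replicate 3 (0.033). RAN had 390.4, 434 and 472 TPM in SF replicates 1 to 3, against 439, 401 and 331 TPM in PF replicates 1 to 3 and 577 TPM in PF replicate 4, with overlapping stages and the smallest standard error of the 38 genes (0.20 ± 0.24, DESeq2 adjusted p = 0.61). RANGAP1, which turns RAN off in the cytoplasm, had 5.39, 4.80 and 1.79 TPM in SF replicates 1 to 3, against 3.11, 2.07 and 5.69 TPM in PF replicates 1 to 3 and 12.4 TPM in PF replicate 4. The stages overlapped, and PF replicate 4 was the highest library (0.09 ± 0.68, DESeq2 adjusted p = 0.95).

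Most of the 14 genes that fell had the same lowest and highest libraries. PF replicate 3 was the lowest of PF replicates 1 to 3 for all 14, PF replicate 1 the highest for 13 (NUP85 was highest in PF replicate 2), and SF replicate 3 the lowest SF library for 13 (NUP88 was lowest in SF replicate 1). PF replicate 4 was below the other PF libraries for 13 of the 14, and it lay within the SF range for 9, above it for 3 and below it for 2. Over all genes tested PF replicate 3 was the lowest of these PF libraries for 49.7%, PF replicate 1 the highest for 43.6%, SF replicate 3 the lowest SF library for 51.3% and PF replicate 4 below the other PF libraries for 35.3%. Over the 1650 genes called lower in SF these shares were 82.97%, 62.7%, 80.3% and 86.1%. The oocyte marker score had the same lowest library in each stage, SF replicate 3 at 2.70 and PF replicate 3 at 5.79, with PF replicate 4 at 3.50. It was highest in PF replicate 2, but the single oocyte markers differed. Of PF replicates 1 to 3, BMP15, NOBOX, DDX4, FIGLA and ZP3 were highest in PF replicate 1. OOSP2 was highest in PF replicate 3 and the other oocyte markers in PF replicate 2. The granulosa score had PF replicate 1 highest and PF replicate 3 lowest of PF replicates 1 to 3, as did the score of the 44 other nuclear transport and envelope genes (5.14, 4.91 and 4.59). INHBA had 101 TPM in PF replicate 1, against 0.604 and 1.81 TPM in PF replicates 2 and 3. The top place of PF replicate 1 in the granulosa score rests on INHBA alone. In SF the granulosa score was highest in SF replicate 3. KRT8, KRT18 and INHBA had 637, 192 and 156 TPM there, against at most 23.4, 7.84 and 3.60 TPM in SF replicates 1 and 2. INHA, KITLG and FSHR were also highest in SF replicate 3. FOXL2, NR5A1, WNT6 and GSTA1 were lowest in it, and AMH and GATA4 lay between. Of the 15 oocyte markers 11 were lower, the median log2 fold change of the list was -2.44, and none of the 14 genes fell by more than that median. The oocyte markers ranged from -3.48 (BMP15) to -0.57 (ZP4), and the 14 genes, at -2.02 to -0.78, lay inside that range. Of the 12 granulosa markers 9 had an adjusted p, and 7 of these were higher. The median log2 fold change of all 12 was 1.41. It includes KRT8, KRT18 and INHBA, which had no adjusted p. The part of the oocyte and granulosa markers in the falls was not tested.

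**Figure D4:**
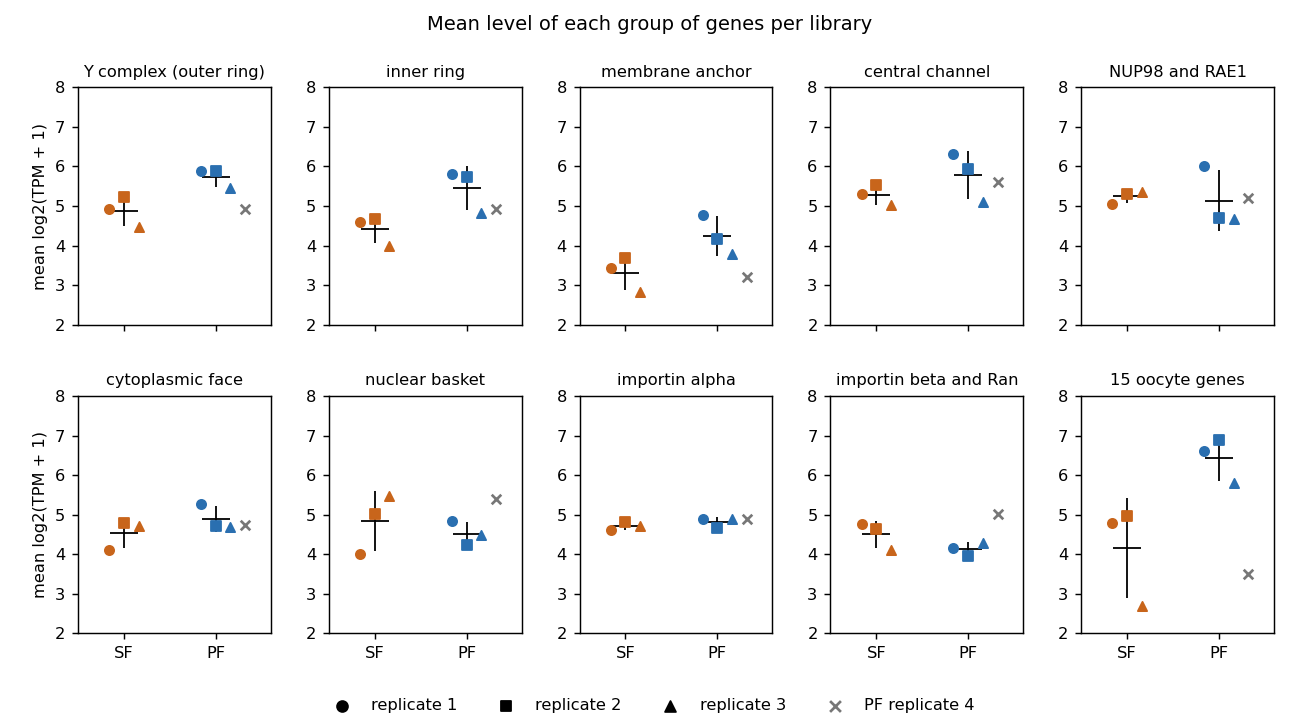
Mean log2(TPM + 1) of the genes of each pore position, and of 15 oocyte markers, in each library (points, with shape for the replicate number), with the mean and SD of SF replicates 1 to 3 and PF replicates 1 to 3 (bars) and PF replicate 4 as a cross. The outer ring scores are 4.92, 5.22 and 4.47 in SF, against 5.88, 5.88 and 5.45 in PF replicates 1 to 3, the SF libraries lie below PF replicates 1 to 3 for the outer ring, the inner ring, the membrane anchors and the oocyte markers, and SF replicate 3 is the lowest SF library in each of these.

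The number in each library's name was below 40 for SF replicate 1 and PF replicates 1 and 2, and above 40 for the other libraries. The labels do not say what it stands for. Below 40 SF replicate 1 was set against PF replicates 1 and 2. Above 40 SF replicates 2 and 3 were set against PF replicate 3, without PF replicate 4. The contrast below 40 thus rests on a single SF library and that above 40 on a single PF library. The medians of these contrasts were not compared by a test. Within the numbers below 40 the median difference of the 38 genes in log2(TPM + 1), SF minus PF, was -0.81, with 28 genes below 0, and within those above 40 it was -0.14, with 20 below 0, where all genes tested had medians of -0.13 and 0.10. For the 14 genes that fell this difference was -2.04 to -0.99 below 40 and -1.95 to -0.47 above 40. For KPNA1 it was 0.77 and 1.01. These genes were called on the same libraries, so the sign within each series is no separate evidence.

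The effective transcript length of the 14 genes that fell was 1077 to 4729 bases, with a median of 2179.7, and that of the other 24 genes 1059 to 9844 bases, with a median of 3602. None of the 8 genes over 5000 bases (NUP188, NUP98, NUP205, NUP210, NUP214, TPR, AHCTF1 and RANBP2) passed, and their median log2 fold change was 0.36. All 1837 genes of that length had a median of 0.38, and 6.70% of them fell. At 5000 bases or less 14 of 30 genes fell, with a median of -0.76, where all genes of that length had a median of -0.02 and 11.6% fell. By the mean TPM over the 6 libraries, 18 of the 38 genes were in the top 25% of all genes tested, and 13 of these fell, where 17.7% of all genes at that level did. Whether length or level has a part in which pore genes fell was not tested.

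**Figure D5:**
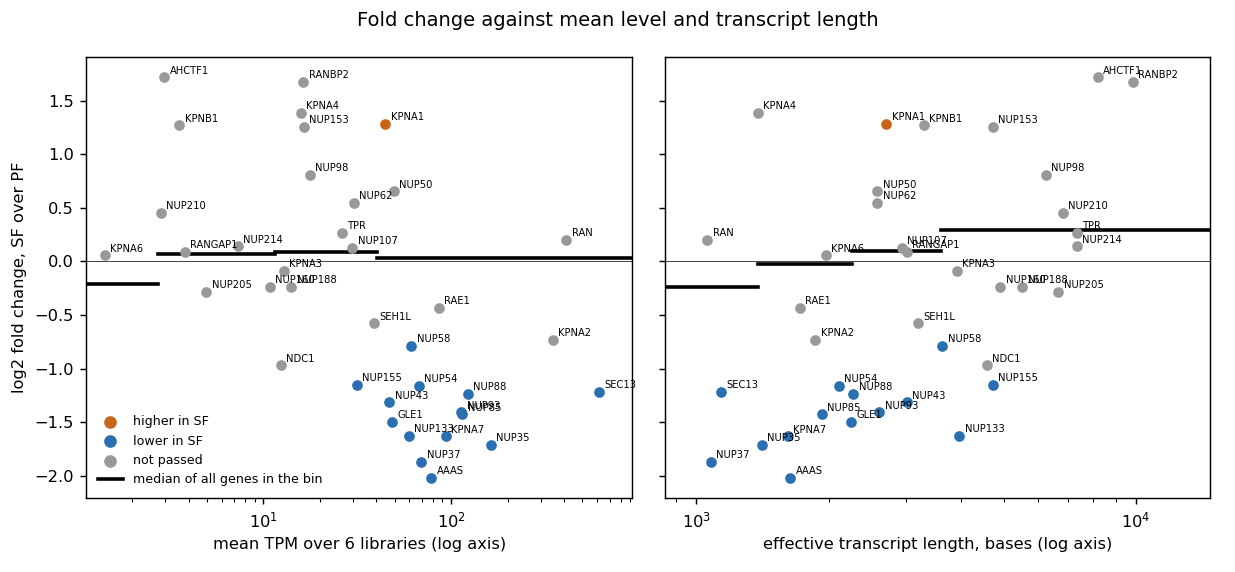
Log2 fold change of each gene (SF over PF) against its mean TPM over SF and PF replicates 1 to 3 (left) and its effective transcript length (right), both on log axes, with black lines for the median of all genes tested in each 25% of genes along the axis. The genes that fell lie at 31.4 TPM or more and at 1077 to 4729 bases, and the 8 genes over 5000 bases lie between -0.28 and 1.72.

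For some genes the transcripts of a gene differed between libraries. The curated NUP85 transcript had 49.2, 63.6 and 4.20 TPM in SF replicates 1 to 3, against 185, 152, 94.9 and 40.7 TPM in PF replicates 1 to 4, while a predicted one had 20.9, 7.79 and 29.5 TPM in SF, against 11.2, 68.7, 1.63 and 14.6 TPM in PF. In SF replicate 3 most NUP85 signal was thus on the predicted transcript. For NUP93 the curated transcript (58.7, 48.9 and 22.1 TPM in SF, against 161, 144, 55.4 and 39.7 TPM in PF) and the predicted one (21.8, 15.2 and 6.70 TPM in SF, against 75.5, 50.0, 20.4 and 17.0 TPM in PF) were both highest in PF replicate 1 and lowest in SF replicate 3. Transcripts were not tested, and reads that fit both are split by an estimate.

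Of 44 other nuclear transport and envelope genes, 4 were lower and 2 higher in SF, shares no larger than the 11.0% and 8.14% of all genes tested. Their median log2 fold change was 0.03, against 0.02 over all genes. The export receptor CSE1L (CAS), which returns importin alpha to the cytoplasm, had 39.8, 37.2 and 26.6 TPM in SF replicates 1 to 3, against 135, 105 and 67.2 TPM in PF replicates 1 to 3 and 67.6 TPM in PF replicate 4. All 4 PF libraries were above the SF libraries (-1.44 ± 0.30, DESeq2 adjusted p = 9.5e-05). RANBP1, which helps to take RAN off its carriers, had 507, 451 and 221 TPM in SF replicates 1 to 3, against 1241, 1247 and 783 TPM in PF replicates 1 to 3 and 361 TPM in PF replicate 4. PF replicate 4 lay inside the SF range (-1.34 ± 0.36, DESeq2 adjusted p = 0.0033), and with it kept the call ended (0.15). The ratio of RANBP1 to RAN was 1.299, 1.04 and 0.467 in SF, against 2.83, 3.11, 2.36 and 0.625 in PF replicates 1 to 4. ENY2, of the basket-bound RNA export complex, and the import receptor IPO4 also fell (-1.09 ± 0.25 and -1.63 ± 0.46, DESeq2 adjusted p = 0.00038 and 0.0044). Of the nuclear lamina and envelope genes LMNA (lamin A/C) and TMPO rose (2.23 ± 0.78 and 0.86 ± 0.33, DESeq2 adjusted p = 0.029 and 0.049). LMNA had 64.2, 176 and 689 TPM in SF replicates 1 to 3, against 66.6, 58.3 and 84.1 TPM in PF replicates 1 to 3 and 561 TPM in PF replicate 4, and its call ended without SF replicate 3 (0.35), without PF replicate 1 or 2 (0.12 and 0.13), with PF replicate 4 kept (0.77) and in a fit that included the library number (0.20). That of TMPO held only without SF replicate 3 among the fits that left out a library, and ended without each of the other 5 (DESeq2 adjusted p = 0.062 to 0.21), with PF replicate 4 kept (0.086), with the replicate block (0.071), with the library number (0.056) and with the count filter (0.072).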

How the data were processed

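Total RNA of pooled follicles was amplified by the authors with SMART-Seq v4, a kit without strand information, so reads of overlapping genes cannot be told apart. Paired reads were trimmed and assigned to bovine transcripts of the ARS-UCD1.3 build with Salmon. The submitters' processing notes name Salmon and Trim Galore, and the study's methods also name fastp for trimming. Each deposited table gives, per the file headers, an estimated count, a TPM and an effective length for 76123 transcripts. Salmon can exchange reads between near-identical copies of a gene, which were not searched for here. By accession 50205 transcripts (66.0%) were assigned to genes with RefSeq names of assembly ARS-UCD2.0, whose coordinates were not used. The 25918 unmatched transcripts held 9.71% to 10.7% of the estimated counts. Deposited estimated counts and TPM were summed per gene, and counts were rounded to whole numbers. No libraries of a stage were duplicates.

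The 38 genes, the list of other nuclear transport and envelope genes (46, of which 44 were matched and POM121 and IPO5 were not) and the marker lists were chosen with earlier results of these data known. SF was compared with PF over 3 libraries each by the Wald test (DESeq2 1.42.0, R 4.3.3), with size factors by the median of ratios, default independent filtering and a threshold of 0.05 on the Benjamini-Hochberg adjusted p. An adjusted p was obtained for 15056 of the 19009 genes that had counts. Each of the 38 genes is named, with the value in every library for those that passed and for KPNA7, KPNB1, RAN, RANGAP1 and NUP62, and the other pathway genes are named if they passed. As alternatives, limma 3.58.1 was run on log2 TPM with a pseudocount of 1 or 0.1 for genes at 1 TPM in 3 or more libraries, and edgeR 4.0.16 with its quasi-likelihood test, and DESeq2 was run with TMM factors, a transcript length offset, a filter of 10 counts in 3 or more libraries, the inclusion of PF replicate 4, a replicate block, the library number (below or above 40) as a factor, and the omission of single libraries. Both count fits were tested on simulated counts with the means and spread of these libraries and a small set of changed genes. There DESeq2 called unchanged genes far more often than its threshold allows, and edgeR called few of them but missed most of the changed genes. Endothelial and leukocyte marker scores were at most 1.24 and 2.13 in any library. Of the leukocyte markers CSF1R had 89.2, 62.0 and 31.5 TPM in PF replicates 1 to 3 and was lower in SF (DESeq2 adjusted p = 0.0038). LAPTM5 had 15.1 TPM in SF replicate 1, and PTPRC, CD68 and CD14 had at most 5.13 TPM in any library. Figures were drawn with Python 3.11.15, pandas 2.3.3 and matplotlib 3.10.9.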

Additional observations from a re-analysis of the deposited data

Results flagged for a closer look

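In 3 of the 38 genes a PF library stood apart from the other 3 PF libraries, with a gap to its neighbour that took most of the range of the 4 (Dixon's criterion, which chance meets in about 1 group in 20). NDC1 had 30.2 TPM in PF replicate 1, and the next PF library had 10.4 TPM, a gap of 0.915 of the range. KPNA2 had 608 TPM in PF replicate 1, and the next had 389 TPM, a gap of 0.923 of the range. KPNA1 had 94.2 TPM in PF replicate 4, and the next had 34.7 TPM, a gap of 0.830 of the range. SF, with 3 libraries, was not examined in this way.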

How the results depend on the processing

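The 14 lower calls of DESeq2 numbered 12 with TMM factors, 14 with the transcript length offset, the count filter and the replicate block, and 15 with the library number in the model. They numbered 2 with PF replicate 4 kept, 2 with limma on log2(TPM + 1), and 0 with limma on log2(TPM + 0.1) and with edgeR after adjustment, and 6 to 13 when a library was left out. The 6 occurred without PF replicate 1 or 2. The higher calls among the 38 genes (1) numbered 0 with edgeR, both limma fits and PF replicate 4 kept, 4 with the replicate block (KPNA1 with AHCTF1, RANBP2 and KPNA4), and 0 to 3 when a library was left out. SEH1L was also lower with the length offset and the library number (DESeq2 adjusted p = 0.022 and 0.028), and KPNA2 with the library number (0.043). Over all genes the 2876 calls became 0 with edgeR, 792 and 2 with limma at pseudocounts of 1 and 0.1, 858 with PF replicate 4 kept and 1887 to 3947 when a library was left out. Other transport genes higher in SF (2) numbered 0 with edgeR, both limma fits and PF replicate 4 kept, 1 with the count filter or the library number, 5 with the replicate block and 0 to 6 when a library was left out, and those lower (4) numbered 0 with edgeR and limma at 0.1, and 4 to 7 when a library was left out.

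Samples share only a replicate number between the stages. Deviations of same-numbered libraries from their stage means correlated at 0.260, -0.038 and 0.404, and those of differently numbered libraries at -0.432 to 0.267. With the replicate block DESeq2 called 4077 genes, 14 of the 38 lower and 4 higher. None of the 15 calls reversed direction under any alternative. Of the genes that did not pass, the log2 fold change of KPNA3 was 0.0012 with edgeR, of NUP50 -0.10 and -0.12 with limma at 1 and 0.1 and -0.080 with the library number, of KPNA6 -0.0081 with limma at 1, of NUP214 -0.045 with the library number, and with PF replicate 4 kept of NUP62 -0.16, of RAN -0.037 and of RANGAP1 -0.60, each opposite in sign to the reported value. Leaving out a library also turned the sign of NUP107 (-0.14 to 0.27), NUP214 (-0.12 to 0.34), NUP50 (-0.13 to 1.09), TPR (-0.053 to 0.45), KPNA3 (-0.27 to 0.073), KPNA6 (-0.32 to 0.60) and RANGAP1 (-0.22 to 0.71). The causes of these shifts were not tested. With 3 libraries a stage, and KPNA6, KPNB1, RANGAP1 and AHCTF1 at a few TPM, differences in these 4 genes had standard errors of 0.52 to 0.91.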
